A study of Mus musculus with 6 samples.

Results

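The resting transcriptome of 4T1 cells, a mouse mammary carcinoma line that grows as an adherent culture and spreads to distant organs when grafted into mice, was described from the 3 libraries that the sample titles call untreated, of 6 in the series. The libraries were chosen by their title alone, and all 24421 genes of the deposited count table were read in them. The cells are 4T1-tetL1(GLucAI), labelled as derived from a breast carcinoma of the strain BALB/cfC3H and grown in DMEM with fetal bovine serum. They carry a doxycycline-inducible LINE-1 (L1) retrotransposition reporter, integrated with the PiggyBac transposase and selected with blasticidin, so they are a selected population and not 1 clone. The cassette also drives the Tet-On transactivator and the resistance gene at all times, in untreated cells too. The treatment label of these 3 samples reads vehicle where the title reads untreated. The remaining 3 libraries came from the same cells given doxycycline (400 ng/mL, 48 h) and were not used. No row of the count table names the L1 cassette or its reporter, so the label untreated could not be checked against them.

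Epithelial cells are joined into sheets by the adhesion protein E-cadherin (Cdh1), by the surface protein Epcam and by tight junctions and desmosomes, and their cytoskeleton is built from keratins. Mesenchymal cells hold few such junctions, fill their cytoskeleton with vimentin (Vim) and lay down fibronectin-rich matrix. In carcinoma the transcription factors of the Snai, Zeb and Twist families repress the epithelial genes during an epithelial-mesenchymal transition, and cells that hold both sets at once are common among metastatic lines.

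Levels are given as counts per 1e6 library counts (CPM), with library totals adjusted by TMM factors (a trimmed mean that guards against a few dominant genes), as mean ± SD over the 3 libraries. Because a long transcript yields more fragments than a short one, levels of different genes are compared as CPM per kilobase of merged exons (CPM per kb). Where genes are ordered by CPM, the text says so, and that order also reflects their length. All comparisons between genes are descriptions, with no test, since there is 1 group of libraries. A gene counted as present reached a mean of 1 CPM. A count of 0 allows up to 3 counts, which is 0.0685, 0.0901 and 0.0804 CPM in libraries 1, 2 and 3, and this limit covers counting error only.

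The libraries held 43631312, 33537520 and 37146588 counts. TMM factors were 1.003, 0.992 and 1.004. Genes with a count numbered 15511 to 15685 per library, and 14480 genes had counts in all 3. Of the 28 marker entries for other cell types, 11 had no count, among them Cd3e, Adgre1, Kdr, Adipoq and Krt5, and 5 were present (17.9%). Over all protein-coding genes 27.3% had no count and 54.0% were present. The summed level of the 8 leukocyte markers was 9.85 to 12.2 CPM, nearly all of it Cd68 (9.93 ± 1.05 CPM), a lysosomal protein, while Ptprc, the pan-leukocyte protein CD45, stood at 0.314 CPM. The 4 endothelial markers summed to 0.434 to 0.811 CPM. Of the 6 fibroblast markers Pdgfra stood at 36.9 ± 1.35 CPM, Col1a1 at 0.405 CPM, and Lum and Thy1 had no count.

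The single entry with the most counts was Rn45s, the 45S precursor of ribosomal RNA. It took 8.83% of the counts in library 1, 11.04% in library 2 and 9.64% in library 3, so library 2 held the most of this RNA after depletion of ribosomal RNA. Protein-coding genes together took 88.3 ± 1.09% (SD, n = 3). Within them, the 97 cytosolic ribosomal protein genes took 3.83 ± 0.191% and the 68 replication-dependent histone genes 1.35 ± 0.036%. Replication-dependent histone messages lack a poly(A) tail, and these libraries were made by rRNA depletion, not by poly(A) selection. The RNA components of RNase MRP (Rmrp) and RNase P (Rpph1), 2 short noncoding RNAs that process other RNAs, took 0.732 ± 0.0573%, and 2036 long noncoding RNAs 0.948 ± 0.0412%. Outside Rn45s the libraries were even in composition. The 10 highest genes held 4.96 to 5.07% of the remaining counts, and 1017 to 1034 genes were needed to hold 50% of them.

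By CPM alone, the 15 highest entries were Rn45s (98432 ± 11771 CPM), Eef1a1, Actb, Ahnak, Malat1, Rmrp, Pabpc1, Lgals1, Hsp90ab1, Rpph1, Fn1, Ncl, Npm1, Scd2 and Hsp90aa1. Eef1a1, which delivers aminoacyl-tRNA to the ribosome, had 8974, 8776 and 8721 CPM in libraries 1, 2 and 3. Actb, cytoplasmic beta-actin, had 6205, 6181 and 6323 CPM. Eef1a1 lay above Actb in every library, by far more than the spread between libraries, whereas Malat1, Rmrp and Pabpc1 changed places between libraries. Ahnak, a giant scaffold protein, reached 4752 ± 208 CPM over 19938 exonic bases, and the nuclear RNA Malat1 reached 4188 ± 285 CPM. Pabpc1, the poly(A)-binding protein, stood out for its spread, with 3967, 3958 and 3954 CPM. Ncl and Npm1, both nucleolar proteins of ribosome assembly, had 2678 ± 55.2 and 2540 ± 113 CPM. Scd2, a fatty acid desaturase, had 2275 ± 48.5 CPM, and the cytosolic chaperones Hsp90ab1 and Hsp90aa1 had 3373 ± 146 and 2226 ± 83.8 CPM.

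Per kilobase, the protein-coding order changed. Lgals1, the secreted lectin galectin-1, led with 4231, 3779 and 4106 CPM per kb in libraries 1, 2 and 3. Eef1a1 followed with 3539 ± 53.4 CPM per kb and Actb with 2328 ± 28.5 CPM per kb. Lgals1 exceeded Eef1a1 in all 3 libraries, but with the longest transcript as the length the order turned, to 4918 CPM per kb for Eef1a1 and 4559 for Lgals1. The other genes among the 10 highest were Hist2h2bb (1638 ± 88.1 CPM per kb), the ribosomal stalk protein Rplp1 (1550 ± 77.9), the calcium-binding protein S100a11 (1152 ± 112), osteopontin Spp1 (1143 ± 27.8), Hsp90ab1 (1125 ± 48.6), Hist1h4k (989 ± 29) and prothymosin Ptma (988 ± 60). Of these 10 genes 7 stayed among the 10 highest with the longest transcript as the length, and 9 or 10 when a library was left out. S100a11, Spp1 and Hsp90ab1 differed by less than the spread of S100a11, and so did Hist1h4k and Ptma by less than their own. Histone genes have near-identical copies and Eef1a1 has processed copies elsewhere in the genome, so how reads were split among copies is uncertain for them. Across all 20504 protein-coding genes with a length the median was 0.747 CPM per kb, and across those present it was 7.24 CPM per kb.

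The defining epithelial markers were all well above the limit of detection. Krt18 and Krt8, the keratin pair of simple epithelia, had 642.8, 628.4 and 634 CPM and 422.4, 408.1 and 402.5 CPM in libraries 1, 2 and 3. Cdh1 had 320.2, 308.3 and 302.4 CPM. Epcam, an adhesion protein of simple epithelia, had 34.8, 33.0 and 32.1 CPM. For Cdh1 and Epcam library 1 was the highest and library 3 the lowest. Per kilobase these levels were 442 ± 5.03 for Krt18, 210 ± 5.25 for Krt8, 67.8 ± 1.98 for Cdh1 and 15.2 ± 0.618 for Epcam, which ranked 58, 157, 534 and 3136 among protein-coding genes. The 4 epithelial markers thus lay far apart from each other, beyond any spread between libraries.

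Of the 63 genes of the epithelial list 48 were present (76.2%), beside 54.0% of all protein-coding genes, and 4 had no count (Krt5, Krt6a, Krt6b and Ap1m2), beside 27.3%. The median of the list was 5.86 CPM per kb. Among junction genes Ctnnb1, Cdh1 and Ctnnd1 led, at 129, 67.8 and 51.2 CPM per kb. The products of Ctnnb1 and Ctnnd1, beta-catenin and p120-catenin, bind the tail of E-cadherin. Tight-junction claudins were lower. Cldn3 stood at 24.8 ± 0.449, Cldn4 at 14.8 ± 0.548 and Cldn7 at 2.31 ± 0.155 CPM per kb, while Cldn1 was at 0.0651. The desmosomal plaque gene Dsp had 16.4 CPM per kb. P-cadherin, Cdh3, the cadherin of basal cells, was at 0.0121 CPM per kb.

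The highest keratins per kilobase were those of simple, luminal-type epithelium. Krt7 followed Krt18 and Krt8 at 56.3 ± 2.52 CPM per kb, and Krt19 had 34.3 ± 1.14. Krt80 was next, at 7.5. The basal and stratified keratins stood apart from these. Krt14 was at 3.05 CPM, Krt17 at 0.187 CPM and Krt15 at 0.113 CPM, and Krt5, Krt6a and Krt6b had no count, although Krt6a and Krt6b are near-identical copies, and how reads shared by both were counted is not given in the sources used here. Over the whole keratin family 28 of 52 genes had no count (53.85%) and 10 were present, beside 27.3% and 54.0% of all protein-coding genes. Keratins of other types were among those present, with Krt10 at 5.14, Krt83 at 4.27, Krt85 at 1.82 and Krt13 at 1.29 CPM. Among regulators and membrane proteases, Cd24a, a surface glycoprotein, had 103 CPM per kb, the protease inhibitor Spint2 had 37.1 and the transcription factor Klf5 had 20. Factors that hold the epithelial programme were present, with Grhl2 at 5.01 CPM per kb, the splicing regulators Esrp2 and Esrp1 at 4.98 and 4.26, and Elf3 at 11.3. Ovol1 was at 1.27 CPM per kb, whereas its relative Ovol2 was at 0.0301.

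The 250 bases before the start of Epcam (GRCm38, chr17:87635729-87635978, + strand) and the 214 bases before that of Krt18 (chr15:102027966-102028179, + strand) are shown because the E-box CAGGTG, or CACCTG on the other strand, is the word that Snai and Zeb factors read. They are taken from RefSeq and end where the GENCODE gene begins, and capitals mark the E-box.
Epcam: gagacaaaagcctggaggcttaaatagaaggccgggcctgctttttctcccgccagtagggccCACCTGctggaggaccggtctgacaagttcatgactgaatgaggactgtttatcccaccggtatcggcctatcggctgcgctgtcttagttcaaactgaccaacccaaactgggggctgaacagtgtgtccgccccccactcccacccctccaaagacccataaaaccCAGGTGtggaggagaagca
Krt18: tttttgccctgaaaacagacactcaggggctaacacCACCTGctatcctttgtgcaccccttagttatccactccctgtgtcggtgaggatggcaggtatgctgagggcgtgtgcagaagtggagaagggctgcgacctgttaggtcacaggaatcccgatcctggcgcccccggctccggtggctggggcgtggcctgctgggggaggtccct
The Epcam window held 2 E-boxes, which began 187 and 19 bases before its end, and the Krt18 window held 1, which began 178 bases before its end. Of 32851 RefSeq promoters, 17.2% held the word in 250 bases and 15.2% in 214, so it is common. A match in these letters is a description and says nothing of binding. Cdh1 is named only.

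The same libraries held high levels of mesenchymal messages. Vim had 2067, 1985 and 2015 CPM in libraries 1, 2 and 3, and fibronectin Fn1 had 3002, 2940 and 2933 CPM. Library 1 was the highest for both. Per kilobase Vim stood at 426 ± 8.67 and ranked 59 among protein-coding genes, directly after Krt18. The lowest library for Krt18 (437.3 CPM per kb) lay just above the highest for Vim (435.7), but with the longest transcript as the length Vim was higher, at 691 CPM per kb against 442 for Krt18. The order of these intermediate filament genes thus rests on the choice of length.

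The mesenchymal list was split more sharply than the epithelial one. Of its 53 genes 27 were present (50.9%), near the 54.0% of all protein-coding genes. A further 10 had no count, beside 27.3% of all protein-coding genes, and the median was 0.156 CPM per kb. Its highest members were among the highest genes of the cell, with S100a4 at 935 ± 57, S100a6 at 820 ± 52.9, Vim at 426 ± 8.67, Fn1 at 253 ± 3.27 and Axl at 182 ± 2.44 CPM per kb. S100a4 is a calcium-binding protein of motile cells and Axl a receptor tyrosine kinase. Summed over the list, the 3 libraries held 2832 to 3080 CPM per kb of mesenchymal genes and 1604 to 1643 CPM per kb of epithelial genes. The mesenchymal sum rested largely on S100a4 and S100a6, so it does not describe the list as a whole. By the median the order was the reverse, with 0.156 CPM per kb for mesenchymal and 5.86 for epithelial genes. Matrix genes were led by Fn1, Sparc (51.2 CPM per kb) and Col5a1 (15.1). Fibrillar collagens other than Col5a1 were low or unseen, with Col1a1 at 0.405 CPM, Col1a2 at 0.362 CPM and no count for Col3a1, Col5a2 or the proteoglycan Lum.

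**Figure D1:**
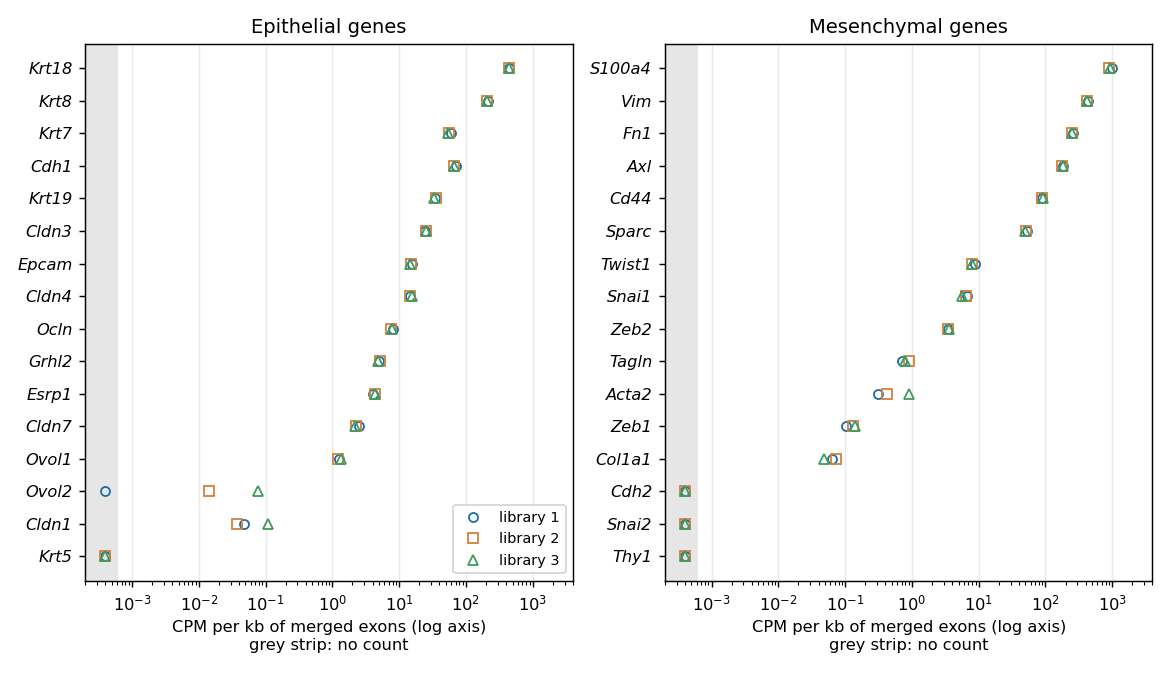
Levels of 16 epithelial (left) and 16 mesenchymal (right) genes as CPM per kb of merged exons on a log axis, 1 symbol per library and the grey strip for no count. Krt18, at 442 CPM per kb, and Vim, at 426, lie at nearly the same place, whereas Cdh2, Snai2 and Thy1 have no count in any library.

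N-cadherin (Cdh2), which replaces E-cadherin in many mesenchymal cells, had no count in any library, and neither did Thy1 or the myosin light chain Myl9. Cdh11 was at 0.0501 CPM. Smooth muscle genes were low, with Tagln at 1.58 CPM and Acta2 at 0.685, 0.931 and 1.96 CPM in libraries 1, 2 and 3. Acta2 was highest in library 3, with 73 counts against 30 and 31 in the others. Of the transcription factors, Sox9 and Foxc1 led, at 28.7 and 12.5 CPM per kb. The factors that repress Cdh1 were uneven. Twist1 had 14.3, 12.9 and 12.9 CPM, Snai1 had 10.8, 10.3 and 9.03 CPM and Zeb2 had 69.7, 70.0 and 71.6 CPM, while Zeb1 had 1.07, 1.35 and 1.42 CPM. Per kilobase the order was Twist1 (8.2 ± 0.51), Snai1 (6.2 ± 0.555), Zeb2 (3.53 ± 0.0514) and Zeb1 (0.125 ± 0.0179), with no overlap between neighbours. By CPM, however, Zeb2 was the highest of them. Its merged exons span 19942 bases, against 1628 for Twist1 and 1621 for Snai1. The place of Zeb2 thus depends on the length used, and this order was not recomputed with the longest transcript. Snai2, Gsc, Msx1 and Msx2 had no count.

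Mammary lineage genes were present in part. Of 43 genes 16 were present (37.2%), beside 54.0% of all protein-coding genes. Those with no count numbered 12, near the share of 27.3% over all protein-coding genes. The luminal factor Gata3 had 100, 93.4 and 102 CPM, which is 24.7 ± 1.11 CPM per kb. The epidermal growth factor ligand Areg, a target of estrogen signaling in the gland, had 22.3 CPM per kb and Xbp1 had 18.3. Foxa1 was at 1.82 CPM per kb. The estrogen receptor gene Esr1 had 13.3, 14.1 and 12.7 CPM, or 0.98 ± 0.0499 CPM per kb. The progesterone and prolactin receptor genes Pgr and Prlr had no count, and neither did Kit, which marks luminal progenitors, nor Wfdc18. Elf5, the factor of alveolar cells, was at 0.0518 CPM. Genes of the basal and stem list were led by the integrins Itgb1 (297 CPM per kb) and Itga6 (38.4), the hyaluronan receptor Cd44 (90.2) and Procr (45.7), none of which is restricted to basal cells. The defining basal genes Krt5, Trp63 and Krt14 were at 0, 0.246 and 3.05 CPM. Of 10 milk protein genes 7 had no count (Csn1s1, Csn1s2a, Csn1s2b, Csn2, Glycam1, Lalba and Olah). The exception was kappa-casein, Csn3, with 10.6, 8.53 and 12.1 CPM, lowest in library 2.

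Receptors were then read by family. A receptor binds a ligand outside the cell and passes the signal on through its own kinase, a partner kinase, a G protein or as a transcription factor. Of 280 receptor genes 147 were present (52.5%) and 47 had no count (16.8%), beside 54.0% and 27.3% of all protein-coding genes, and the median was 0.414 CPM per kb. Families differed in their medians. The TGF-beta and BMP receptors had the highest, 7.15 CPM per kb, with 10 of 14 present, and the chemokine receptors the lowest, 0.015 CPM per kb, with 6 of 23 present.

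Among 45 receptor tyrosine kinases 26 were present (57.8%), near the 54.0% of all protein-coding genes. Axl, a receptor of the TAM family whose ligand is Gas6, led with 929, 905 and 919 CPM. It was followed by Epha2, an ephrin receptor, at 47.1 ± 1.46 CPM per kb, the scatter factor receptor Met at 37.5 ± 0.238 and the collagen receptor Ddr2 at 29.9. Axl exceeded every other member in all 3 libraries. The other TAM kinases Tyro3 and Mertk were at 3.05 and 0.421 CPM per kb. In the ERBB family Erbb2 had 43.8, 43.9 and 46.5 CPM, Erbb3 had 8.17 CPM on average, Egfr had 1.07, 1.17 and 1.07 CPM and Erbb4 had no count. Per kilobase Erbb2 stood at 8.58 ± 0.292 and Egfr at 0.0976 ± 0.00504. Fgfr2 was the leading FGF receptor, at 9.29 CPM per kb, whereas Fgfr1 was at 0.00154. The insulin and IGF1 receptors Insr and Igf1r had 10.7 and 10.4 CPM per kb. No count was found for Erbb4, Flt4, Kdr, Kit, Ntrk2 and Ror2.

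The TGF-beta and BMP receptors were led by the BMP receptor Bmpr1a at 29.7 ± 1.28 CPM per kb, the TGF-beta receptor Tgfbr2 at 25.7 ± 0.458 and the co-receptor Eng at 18.7, with Tgfbr1 at 16.4. Only Acvrl1, in the list of 14, had no count. Wnt, Notch and Hedgehog receptors were led by Fzd6 at 33 ± 0.134, Notch2 at 20.2 and Smo at 16.4 CPM per kb, and the Wnt co-receptors Lrp5 and Lrp6 had 11.9 and 11.6. Fzd10 had no count. Of 24 TNF family receptors 14 were present (58.3%), near the 54.0% of all protein-coding genes. None was without a count, beside 27.3% of all protein-coding genes. Tnfrsf12a, the receptor of TWEAK, had 170, 165 and 170 CPM and 87 ± 1.56 CPM per kb, well above Tnfrsf23 (19.2) and Ltbr (17.5). Tnfrsf22 and Tnfrsf23 are near copies of each other, and how their reads were divided is uncertain. The death receptors Tnfrsf10b and Fas had 13.2 and 4.54 CPM per kb.

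Among 46 cytokine receptors 25 were present, near the 54.0% of all protein-coding genes. Il13ra1, Il6st and Ifnar2 were highest, at 14.4 ± 0.157, 14.3 ± 0.421 and 11.3 CPM per kb, and Il13ra1 and Il6st did not differ beyond their spread. Il6st encodes gp130, the signaling chain shared by the IL-6 family, and Ifnar2 a chain of the type I interferon receptor, whose partner Ifnar1 also had 11.3 CPM per kb. Receptors of myeloid growth factors were unseen or near 0, with no count for Csf2ra or Csf3r and 0.0152 CPM for Csf2rb. No count was found for Il10ra, Il20ra, Il21r, Il5ra and Prlr either. Pattern receptors were led by Cd14 (9.98 ± 0.926 CPM per kb), the double-stranded RNA sensor Tlr3 (9.03) and the endotoxin receptor Tlr4 (8.11 ± 1.03). Neighbours in this order overlapped between libraries, while Cd14 lay above Tlr4 in all 3. Tlr4 had 39.0, 45.7 and 50.4 CPM in libraries 1, 2 and 3, a wide spread for its level. Its co-factor Ly96 had 3.83 CPM per kb. Tlr11, Tlr12, Cd36, Clec7a and Msr1 had no count.

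Nuclear receptors were led by the clock repressor Nr1d2 at 17.9 ± 0.71 CPM per kb, the retinoic acid receptor Rara at 13.2 ± 0.608 and the glucocorticoid receptor Nr3c1 at 13.2 ± 0.594, followed by Rarg (12.9) and Ppard (12). Rara and Nr3c1 did not differ. Hnf4a, Pgr, Ppara and Rxrg had no count. G protein-coupled receptors were led by the protease-activated receptors F2r, at 169, 162 and 167 CPM, and F2rl1, at 112, 107 and 104 CPM. Per kilobase F2r (49.7 ± 1.05) lay above F2rl1 (39.3 ± 1.36) in all 3 libraries, and Adgrl2 followed at 12. The other listed members of this class lay at 6.19 CPM per kb or lower. No count was found for Adora2a, Adora3, Adra1a, Adrb1, Adrb3, C5ar1, Ednrb, Hcar1, Lpar4, P2ry1, Ptger3 and S1pr3. Of the chemokine receptors Ackr3, an atypical receptor that takes up Cxcl12 without coupling to G proteins, had 63.3, 67.1 and 68.6 CPM, which is 19.8 CPM per kb, and the next per kilobase, Cxcr3, had 2.33. Cxcr4, Ackr1, Ackr2, Ccr2, Ccr3, Ccr6, Ccr8 and Cxcr1 had no count.

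**Figure D2:**
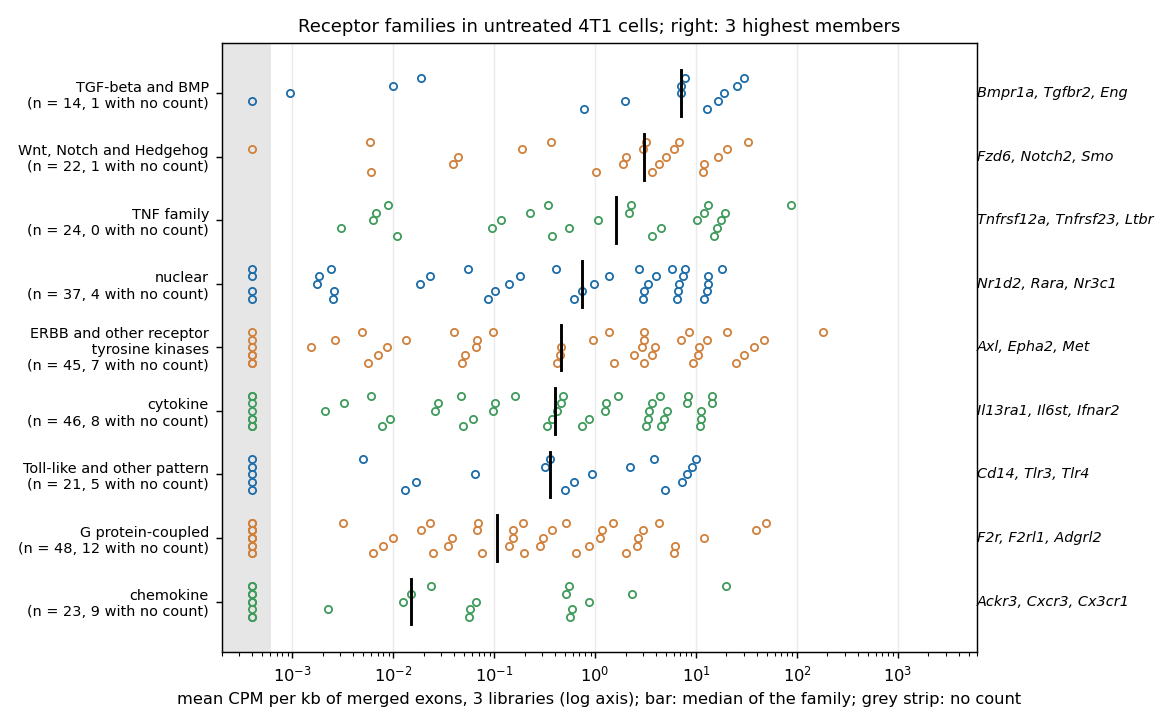
Mean CPM per kb of merged exons over 3 libraries (log axis) for 280 receptor genes in 9 families, 1 circle per gene, with the family median as a bar, no count in the grey strip and the 3 highest members named at the right. Axl, at 182 CPM per kb, is the highest receptor shown. The chemokine receptors have 9 of 23 members without a count, beside 27.3% of all protein-coding genes.

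Of 390 genes for secreted proteins 190 were present (48.7%) and 71 had no count, with a median of 0.284 CPM per kb. The shares over all protein-coding genes were 54.0% present and 27.3% with no count. Several lay above the median of 14 housekeeping genes, 215 CPM per kb. Spp1, osteopontin, a secreted ligand of integrins and Cd44, had 1904, 1831 and 1915 CPM and ranked 7 among protein-coding genes per kilobase. In the matrix group 40 of 65 genes were present, and after Spp1 came Fn1 at 253 and the IGF-binding protein Igfbp4 at 194 CPM per kb. Basement membrane genes followed, with the collagen IV chains Col4a1 and Col4a2 at 74.2 and 51.9 CPM per kb, the laminin chains Lamb1, Lama5 and Lamc1 at 62.7, 52.6 and 50.1, and perlecan Hspg2 at 41. Cyr61 and Thbs1 had 114 and 78.8 CPM per kb. No count was found for Col3a1, Efemp1, Fbn2, Igfbp2, Igfbp5, Lama1 and Lum.

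Chemokines that attract neutrophils stood at the top of their group. Cxcl5 had 783, 877 and 836 CPM, and Cxcl1 had 322, 323 and 342 CPM. Per kilobase Cxcl5 (447 ± 25.2) was above Cxcl1 (176 ± 6.18) in every library, and Cxcl5 ranked 56 among protein-coding genes, just above Krt18. The membrane-bound chemokines Cxcl16 and Cx3cl1 had 30.9 and 21.1 CPM per kb, and Ccl5, Ccl20 and Ccl2 had 16.9, 11.2 and 11.2. Cxcl2, a close relative of Cxcl1, was at 0.165 CPM. In all 11 of 36 chemokines were present (30.6%), and 11 had no count. Over all protein-coding genes 54.0% were present and 27.3% had no count. The 11 chemokines with no count were Ccl1, Ccl11, Ccl12, Ccl19, Ccl24, Ccl27a, Ccl8, Cxcl12, Cxcl13, Cxcl14 and Xcl1.

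Cytokines followed the same uneven pattern, with 21 of 63 present (33.3%), beside 54.0% of all protein-coding genes. Mif, the macrophage migration inhibitory factor, which most cells make, led with 492 ± 11.2 CPM per kb. Csf3, the granulocyte growth factor G-CSF, had 199, 202 and 200 CPM and 142 ± 0.996 CPM per kb, with a spread under 1% of its level. Tslp, an epithelial cytokine that acts on dendritic cells, had 104, 101 and 109 CPM and 78.8 ± 3.11 CPM per kb. Il24 had 38.8 ± 0.432, Csf1 34.3 ± 1.43 and Lif 24.2 ± 0.978 CPM per kb. Il6, Tnf and Il1b were at 0.354, 0.0684 and 0.509 CPM. Ifnb1 was at 0.0483 CPM, and no count was found for Ifng, Ifna2, Ifnl2, Ifnl3, Il12a, Il12b, Il17a, Il20, Il21, Osm and Tnfsf14.

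Growth factors were led by Hdgf at 226 ± 4.73 CPM per kb, the endoplasmic reticulum protein Manf at 45.7 and progranulin Grn at 44.8. Ligands of the EGF receptor family were present as Hbegf (23.2 CPM per kb), Areg (22.3) and Tgfa (12.1). The vascular factors Vegfb and Vegfa had 32.5 and 9.5 CPM per kb. Gas6, Hgf, Fgf10, Fgf13, Ntf3, Pdgfd and Ptn had no count, and Igf1 and Fgf2 were at 0.0579 and 0.0329 CPM. In the TGF-beta group the latent binding proteins Ltbp1 and Ltbp3 and the protease Bmp1 led, at 30.2, 22.4 and 20.3 CPM per kb, followed by Tgfb1 at 15.5 ± 0.12. Bmp2, Bmp4, Grem1, Inha and Lefty2 had no count. Of 34 genes for Wnt ligands, R-spondins, Wnt antagonists and Hedgehog ligands 8 were present (23.5%), beside 54.0% of all protein-coding genes. Wnt7b had 131.4, 120.4 and 122.5 CPM and 25.5 ± 1.19 CPM per kb, Wnt7a 11.9 and Wnt10a 10.6. The share with no count over all protein-coding genes was 27.3%. Within this group of 34, 15 had none, among these Wnt3a, Wnt5a, the antagonists Dkk1, Sfrp2 and Wif1, and the Hedgehog ligand Shh.

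Of 57 proteases and inhibitors 39 were present (68.4%), beside 54.0% of all protein-coding genes. Wfdc2, a whey acidic protein family member of epithelial secretions, had 462, 418 and 448 CPM and led with 388 ± 19.7 CPM per kb. Cathepsin L, Ctsl, followed at 223 ± 3.39, and the collagen chaperone Serpinh1 at 121. The inhibitors Timp1, Timp2 and Slpi had 115.4, 101.7 and 88.2 CPM per kb. Matrix metalloproteinases ran from Mmp3 (93.4), Mmp10 (25.4), Mmp9 (22.1), Mmp14 (18.8) and Mmp13 (18.2) down to Mmp2 (0.156), and Mmp7 had no count, as was the case for A2m, Serpina3n, Spink5 and Timp4. Among the other secreted proteins Lgals1, B2m and Ppia were highest, at 4039, 570 and 317 CPM per kb, and complement C3 and lipocalin Lcn2 had 53.5 and 36.1. The partners S100a8 and S100a9 of calprotectin were at 0.732 CPM and at no count. Apoa1, C1qa, Chil3, Defb1, Lyz1, Orm1, Reg3g and Saa1 also had no count.

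**Figure D3:**
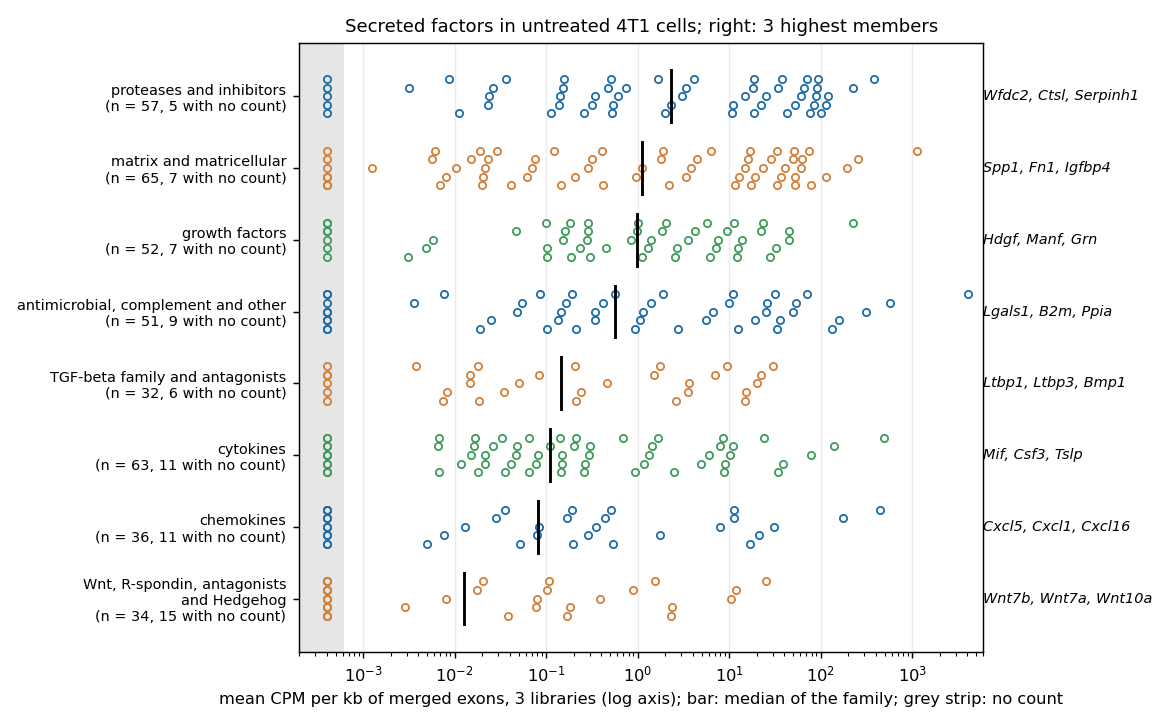
Mean CPM per kb of merged exons over 3 libraries (log axis) for 390 genes of secreted proteins in 8 groups, 1 circle per gene, with the group median as a bar, no count in the grey strip and the 3 highest members named at the right. Lgals1, at 4039 CPM per kb, and Spp1, at 1143, lie far to the right. In the Wnt and Hedgehog group 15 of 34 genes have no count, beside 27.3% of all protein-coding genes.

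Setting ligands beside their receptors showed which member of each pair the cells held. The 43 pairs were picked from textbook pairs after the levels of their members had been seen. Both members were present in 19 pairs, the ligand alone in 13, the receptor alone in 9 and neither in 2. Pairs with both members included Spp1 (1143 CPM per kb) and Cd44 (90.2), Wnt7b (25.5) and Fzd6 (33), Tgfb1 (15.5) and Tgfbr2 (25.7), Efna1 (13.9) and Epha2 (47.1), and Pdgfa (7.57) and Pdgfra (3.68). In some pairs the receptor was high and the ligand low or without a count. Axl had 182 CPM per kb and Gas6 no count, although its other ligand Pros1 was at 2.03 CPM per kb. Met had 37.5 CPM per kb and Hgf no count, and Ackr3 had 19.8 and Cxcl12 no count. Tnfrsf12a had 87 CPM per kb and its ligand Tnfsf12 0.0806.

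In other pairs the ligand was high and the receptor low or without a count. Csf3 had 142 CPM per kb and Csf3r no count. Cxcl5 and Cxcl1 had 447 and 176 CPM per kb, while their receptor Cxcr2 had 5 counts over the 3 libraries together and Cxcr1 had none. Csf1 had 34.3 CPM per kb and Csf1r 0.0659. Kitl had 8.98 CPM per kb and Kit no count, and Ccl20 and Ccl2 were made without a count for Ccr6 and Ccr2. Of the receptors of Vegfa (9.5 CPM per kb), Flt1 was present at 3.02 and Kdr had no count. Some chemokine receptors of leukocytes were present together with their ligand. Cxcl10 and Cxcr3 had 7.87 and 2.33 CPM per kb, Cx3cl1 and Cx3cr1 21.1 and 0.876, and Cxcl16 and Cxcr6 30.9 and 0.588. Hbegf and Areg stood at 23.2 and 22.3 CPM per kb, and their receptor Egfr was present at 0.0976, just above 1 CPM. Tslp and its receptor chain Crlf2 were both present, at 78.8 and 3.21 CPM per kb. Protein was not measured, and messages of a pair do not show that it signals.

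**Figure D4:**
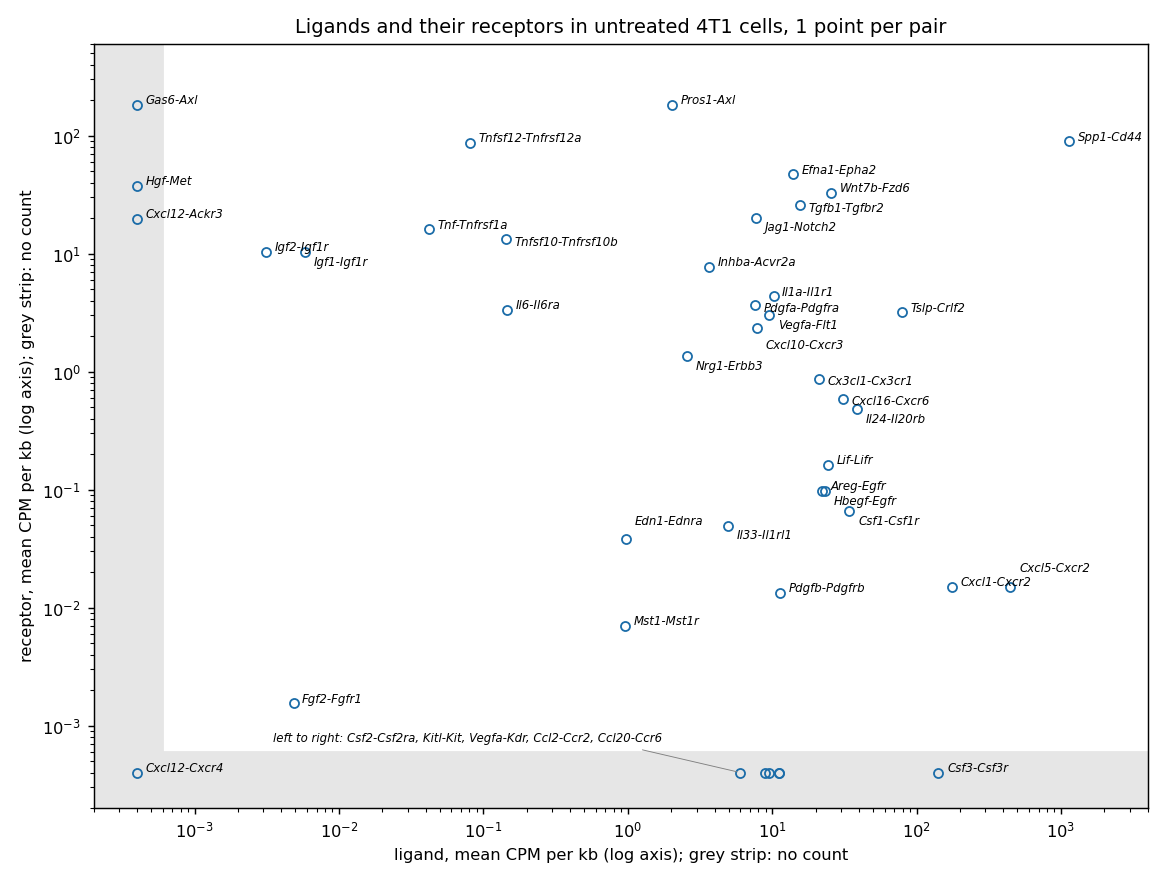
Mean CPM per kb of the ligand (horizontal, log axis) and of the receptor (vertical, log axis) for 43 pairs over 3 libraries, with grey strips for no count. Gas6-Axl, Hgf-Met and Cxcl12-Ackr3 lie at the upper left, with receptor but no ligand counts, and Csf3-Csf3r lies at the lower right with 142 CPM per kb of ligand and no receptor count.

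Genes of tumor biology were largely present, 46 of 51 (90.2%), beside 54.0% of all protein-coding genes. Proliferation genes were high, with Ccnd1 at 238, Myc at 138, Top2a at 128 and Mki67 at 126 CPM per kb. By CPM the order was Mki67 (1266), Top2a (1153), Ccnd1 (1119) and Myc (374), which also reflects their length. All 36 cell cycle genes were at 10 CPM or above, beside 8818 of all 24421 genes. Cdkn2a and Cdkn2b, whose products restrain the cell cycle through the kinases Cdk4 and Cdk6, had no count in any library. They are neighbours on chromosome 4 (GRCm38, Cdkn2a at chr4:89274471-89294653 and Cdkn2b at chr4:89306299-89311039). The next gene on 1 side, Mtap (chr4:89137122-89181081), which recovers methionine from methylthioadenosine, had 519, 528 and 537 CPM. On the other side Dmrta1, Elavl2, Izumo3 and Tusc1 had no count and Zfp352 0.0152 CPM, up to Caap1 at 15.5 ± 0.397 CPM. Beyond Mtap, Ifne was at 0.0305 CPM and Ifna1 had no count. The level of Mtap was thus high in all 3 libraries, while its neighbours named here on both sides, apart from Caap1, were at or near 0. Genes with no count were common, at 27.3% of all protein-coding genes. Cdkn1c, Fhit and Mycn had no count either. Trp53 had 36.3, 33.7 and 36.5 CPM, and its target Cdkn1a had 19.2 CPM. Rb1 and Brca1 had 19.6 and 90.1 CPM. Hmga2, a chromatin protein of embryonic cells, had 346 CPM, and Tert 8.5 CPM.

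Surface proteins read by immune cells were present in part. The class I heavy chains H2-K1 and H2-D1 had 197 ± 3.49 and 167 CPM, and their light chain B2m 490 ± 21.4 CPM. Class I genes have near-identical relatives, so their counts are uncertain. Cd274, which encodes PD-L1, had 2.79, 3.25 and 3.57 CPM. The checkpoint ligand Cd276 had 111 CPM and the inhibitory ligand Cd47 164 CPM, which is 30.4 and 26.1 CPM per kb. The costimulatory ligands Cd80 and Cd86, and Pdcd1lg2, Cd55 and Cd59a, had no count. Class II genes H2-Aa and H2-Eb1 had no count, H2-Ab1 was at 0.02 CPM and their activator Ciita at 0.221 CPM, whereas the invariant chain Cd74 had 10.3 CPM.

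The inflammatory baseline was not uniform. The counts of genes present in the lists below stand beside 54.0% of all protein-coding genes. These lists were chosen with earlier results of the data known, and presence was not tested as a sign of pathway activity. Of 38 NF-kB target genes 33 were present, and besides Cxcl5 and Cxcl1 the prostaglandin synthase Ptgs2 was high, at 685 ± 52.2 CPM and 150 CPM per kb. Icam1 was at 0.22 CPM and Il6 and Tnf were as given above. Of 42 interferon-stimulated genes 41 were present, most at modest levels, with a median of 5.55 CPM per kb. Ifi27, Bst2 and Trim25 were the highest, at 73.9, 35.8 and 27.9 CPM per kb, and Isg15 had 7.63 CPM. All 21 genes of the unfolded protein response were present, led by Hspa5, Calr and Hsp90b1 at 417, 282 and 223 CPM per kb. Of 24 genes of cholesterol synthesis and uptake 23 were present. Insig1, which holds back the pathway's activator, and the synthase Hmgcs1 were among the highest, at 42 and 40.8 CPM per kb. The ATF4 group had 27 of 32 genes present, led by Psat1, Gars and Phgdh at 81.4, 81.2 and 74.3 CPM per kb, of which Psat1 and Phgdh make serine and Gars charges glycine tRNA. Of 29 immediate early genes all were present, from Ier3, Cyr61 and Jund (324, 114 and 105 CPM per kb) to Egr2 (0.655 CPM per kb).

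Of 34 hypoxia-responsive genes 32 were present (94.1%), beside 54.0% of all protein-coding genes, with a median of 17.2 CPM per kb. The highest members were the glycolytic enzyme genes Ldha, Aldoa and Gapdh, at 386, 263 and 247 CPM per kb, and the hypoxia marker Car9 had 6.56 CPM. Slc2a3 had no count and Slc2a1, the other common glucose transporter of the list, had 126 CPM. Eno1 had 0.942 ± 0.178 CPM and its copy Eno1b 145 ± 9.78 CPM, and since the handling of shared reads is not given in the sources used here, neither value can be read as the level of enolase.

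A total of 7572 genes (31.0%) had no count in any of the 3 libraries, of which 5610 were protein-coding. A further 1416 genes had counts in 1 library, with at most 12 counts, and 953 in 2. Genes of the senses made up the largest block. No count was found for 1076 of 1125 olfactory receptor genes (95.6%), 313 of 338 vomeronasal receptor genes (92.6%) and all 15 trace amine receptor genes. The highest olfactory entry by CPM, the pseudogene Olfr856-ps1, had 1.25 ± 0.469 CPM. Several other families of specialised tissues were nearly as empty, with all 20 major urinary protein genes, 55 of 61 defensins, 22 of 25 secretoglobins, 44 of 53 keratin-associated proteins and 19 of 21 late cornified envelope genes at 0. Of 31 reproductive homeobox genes 29 also had no count, and Rhox5 had 14.2, 12.6 and 11.8 CPM. By contrast only 4 of 97 ribosomal protein genes and 31 of 368 zinc finger genes of the Zfp series had no count. In the placental prolactin family, also of a specialised tissue, 8 of 26 genes had no count (30.8%), near the 31.0% of all genes.

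Families of intermediate coverage held some members at high levels and others at 0. Over all protein-coding genes 27.3% had no count. The share was 53.85% of the Hox, 61.9% of the cytochrome P450 and 64.3% of the kallikrein genes. Of 39 Hox genes, the factors of body-axis identity, 21 had no count. The highest per kilobase lay in the Hoxa cluster, with Hoxa5 at 59.3, Hoxa2 at 8.41, Hoxa10 at 8.36 and Hoxa6 at 8.22 CPM per kb. Hoxa5 had 111 ± 4.12 CPM. By CPM, the highest Hoxb, Hoxc and Hoxd genes were Hoxb7, Hoxc6 and Hoxd4, at 0.0179, 0.136 and 1.11 CPM. Of 105 cytochrome P450 genes 65 had no count and 11 were present. By CPM the highest was the sterol demethylase Cyp51 at 163 ± 3.8 CPM, and Cyp1b1 had 74.1 CPM. Of 28 kallikreins 18 had no count, and Klk10 had 59.7 ± 2.01 CPM. Of 373 solute carriers, which move metabolites across membranes, 192 were present, near the 54.0% of all protein-coding genes. By CPM the highest solute carrier was the mitochondrial ADP/ATP carrier Slc25a5 at 685 ± 2.92 CPM.

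Runs of neighbouring protein-coding genes without a count followed such gene clusters. The longest held 79 genes on chromosome 7 (GRCm38, chr7:19965412-23278900), of which 49 carry a vomeronasal symbol. The next, of 78 genes on chromosome 2 (chr2:86782479-88560815), held 76 olfactory receptor genes. A run of 34 genes on chromosome 16 (chr16:87895900-89571183) held keratin-associated proteins, and a run of 29 on chromosome 3 (chr3:91088137-92709074) genes of the cornified envelope, among them Lor and Ivl. No protein-coding gene of chromosome Y among 41 had a count, and the X-inactivation transcript Xist was at 0.168 ± 0.0934 CPM. By chromosome, and apart from Y, the share of protein-coding genes present ran from 36.5% on X and 43.1% on chromosome 7 to 63.8% on chromosome 12.

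The 3 libraries were close to each other. Across 11647 genes of at least 1 CPM the correlation of log2 CPM between libraries was 0.997 for each pair, a description over genes, which are not replicates. Of 9884 genes with a mean of 5 CPM or more, 0, 1 and 0 differed by more than 2-fold in the pairs of libraries 1 and 2, 1 and 3, and 2 and 3, and 10, 8 and 4 by more than 1.5-fold. The chi-square statistic per degree of freedom was taken on raw counts of 13825, 13900 and 13809 genes, Rn45s among them. It was 13.1, 6.14 and 6.67 in these pairs, so no pair was a copy of the same library. Rn45s, whose share differed most between libraries 1 and 2, weighs heavily on it. Over the 9884 genes the median absolute log2 difference was alike in the pairs, at 0.0694, 0.0692 and 0.0658. The common biological coefficient of variation (CV), the spread beyond counting error that edgeR estimates over 12572 genes, was 4.58%. For genes of at least 10 CPM the median CV of CPM was 3.87%, and 65.3% of these 8818 genes had a CV under 5%.

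The spread fell with level. Genes of 1 to 2 CPM had a median CV of 18.0%, where counting error alone is 13.8%. For genes of 10 to 20 CPM these were 6.38% and 4.29%, and for genes of 100 to 200 CPM 2.75% and 1.41%. Above 200 CPM the median CV stayed between 2.13 and 2.58% while the counting error fell to 0.442%. The median of a CV taken over 3 values lies somewhat below the CV behind it.

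The largest CV among genes of at least 10 CPM belonged to Lars2, a mitochondrial leucyl-tRNA synthetase gene, with 91.2, 57.7 and 39.5 CPM in libraries 1, 2 and 3 (CV 41.8%). It was the 1 gene with a more than 2-fold difference between a pair of libraries. Snora74a, a small nucleolar RNA, had 13.3, 7.54 and 9.57 CPM, the neuronal enolase gene Eno2 11.1, 12.9 and 19.0 CPM, and the paraspeckle RNA Neat1 409, 665 and 535 CPM. Neat1 was the only one of these above 100 CPM. The next in order were Gnao1, Zfp408, L3hypdh, Smim20, Anapc13 and Kiz, with CVs of 22.5% down to 19.8%. At the other end Atxn2l, Wdfy3, Havcr2, Eif5 and Gabpb2 had the smallest CVs, 0.032 to 0.0853%, well below counting error. With 8818 genes and 3 values each, some agree this closely.

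Each library had its own deviating genes, taken as the difference of log2(CPM + 0.5) from the mean of the other 2. In library 1 the 5 largest were Lars2 (0.93), Zfp810 (-0.69), Gt(ROSA)26Sor (-0.68), Snora74a (0.62) and the immediate early gene Egr3 (-0.58). In library 2 they were Gnao1 (-0.58), 9230105E05Rik (0.56), Snora74a (-0.55), Dgat2 (-0.54) and Epdr1 (-0.52), and in library 3 Lars2 (-0.87), Eno2 (0.64), Fos (0.57), Zfp689 (-0.53) and Dgat2 (0.52). Between 143 and 171 genes of 9884 deviated by more than 0.3 in a library.

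Some gene lists moved as a group between libraries, by small amounts. The mean log2 deviation from the mean of the 3 libraries was, for 30 hypoxia genes, -0.02, -0.06 and 0.08 in libraries 1, 2 and 3, with 26 of 30 above their own mean in library 3. The hypoxia gene Bnip3 had 51.8, 63.9 and 76.7 CPM. The 28 immediate early genes deviated by -0.08, 0.00 and 0.08, and Atf3 had 9.98, 13.8 and 14.8 CPM. Interferon-stimulated genes followed the same order at a smaller size, -0.04, 0.00 and 0.04 over 34 genes. Ribosomal protein genes lay the other way, at 0.07, -0.06 and -0.01 over 88 genes, with 81 above their mean in library 1 and 9 in library 2. Cholesterol synthesis genes stayed within 0.01 in all 3 libraries. Over all 9884 genes these means were 0.005, -0.004 and -0.001. Of these 9884 genes, 5459, 4748 and 4770 lay above their own mean in libraries 1, 2 and 3. Genes of a list are not replicates. Gene length moved with these values too. The 167 genes with under 1000 exonic bases had a median log2 deviation of 0.06 in library 1, -0.06 in library 2 and 0.01 in library 3, and the part of length in the ribosomal protein values was not tested.

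**Figure D5:**
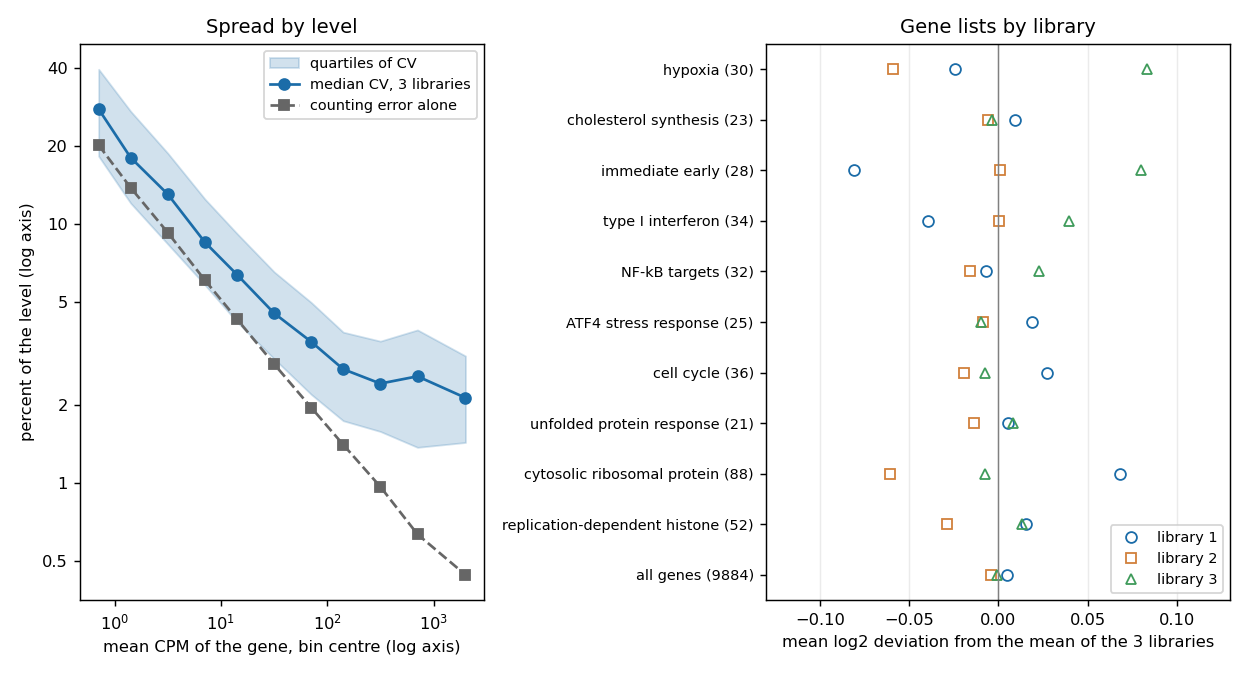
Left, the median CV over 3 libraries (line with quartile band) and the counting error alone (dashed) by mean CPM, both axes log. Right, the mean log2 deviation of each library from the mean of the 3 for 8 gene lists, 2 gene classes and all genes, with the number of genes in brackets. The CV levels off above 200 CPM, and hypoxia and immediate early genes lie highest in library 3, by 0.08.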

How the data were processed

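Total RNA of 3 untreated 4T1 cultures was depleted of ribosomal RNA and made into strand-preserving libraries (RNA HyperPrep with RiboErase). The authors deposited raw read counts per gene, made with bcl2fastq 2.20, STAR and featureCounts (Subread 1.6.2) on mm10/GRCm38, with replicates apart and no normalization. Strand setting and treatment of reads with several matches are not given in the sources used here. All columns were matched to samples (0 unmatched).

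Counts were scaled to CPM with TMM factors over the 3 untreated libraries alone (edgeR 4.0.16 in R 4.3.3) and divided by the merged exon length of GENCODE M21, which was found for 24021 of 24421 genes (98.4%); 664 were matched by an older symbol, and Rn45s has no length. Tables were made with Python 3.11.15, pandas 2.3.3 and numpy 2.4.6, and the dispersion step was tested on simulated data. DESeq2 1.42.0 served as an alternative.

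No test between groups was made. The members and lists were chosen with earlier results of these data known. Named were the 15 highest genes by CPM, the 10 highest protein-coding genes per kb, the 5 markers, the 3 highest and the uncounted members of each list, the 10 largest and 5 smallest CVs at 10 CPM or above, and the 5 most deviating genes of each library at 5 CPM or above. Other list members complete a family. Some genes that come under this rule are not reported here. The ligand-receptor pairs, gene families, zero runs and the region around Cdkn2a were chosen after values were seen. The study describes the cultures as biological triplicates, and each SD covers these 3 libraries. Alternatives were other scalings, the longest transcript as length, other count minimums, thinning to the smallest library and leaving out each library.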

Additional observations from a re-analysis of the deposited data

How the results depend on the processing

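Of 89 values recomputed for the main results under another setting, 75 stayed within 1 SD over the libraries or, for counts of genes, within 1.5 times the count reported. For the common CV the SD was that of its values with each library left out. Some of the 75 could hardly move. Counts of list genes at 1 CPM do not use the length, and TMM factors were 0.992 to 1.004. The bound for counts is wide and took in the 7 of 10 highest genes kept with the longest transcript. Of 54 values for 9 single genes 47 stayed within 1 SD. The gene length mattered most. With the longest transcript the median CPM per kb was 8.07 in place of 5.86 for epithelial genes, 0.221 in place of 0.156 for mesenchymal, 0.0248 in place of 0.0164 for mammary lineage, 0.455 in place of 0.414 for receptor and 0.314 in place of 0.284 for secreted genes. All 7 single-gene values that moved did so with this length, among them Eef1a1 at 4918 and Vim at 691 CPM per kb. Leaving out each library gave medians of 0.151 to 0.176 for mesenchymal, 0.0171 to 0.0237 for mammary lineage and 0.266 to 0.276 CPM per kb for secreted genes, and a common biological CV of 4.20 to 4.77% (4.58% with all). Without Rn45s in the total, protein-coding genes held 97.9% of the counts in place of 88.3%. The common CV was 4.14% for genes of at least 10 CPM and 6.11% as DESeq2's median gene dispersion. Genes seen in every library numbered 13645 at a minimum of 3 counts and 12592 at 10, against 14480 at 1, and genes with at most 2 counts in all 8684, against 7572 with none.

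No paired analysis was possible because only 1 group of libraries was used. Depth limits the genes at 0, which allow up to 3 counts per library. Levels per kb rest on annotated exons and not on the transcripts these cells use. Near-identical copies cannot be separated, protein was not measured, and the 3 libraries come from 1 cell population.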
